A study of Homo sapiens with 6 samples.

Results

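Expression of 9 genes that drive or repress neuroendocrine lineage change in prostate cancer was analyzed in C42-B cells: INSM1, NEUROD1, FOXA2, POU3F2, SOX2, REST, SRRM4, ONECUT2 and PROX1. They were chosen by gene symbol from the 58024 genes of the RNA-Seq table, and each symbol had 1 row. C42-B (written C4-2B in the paper) is a bone-metastatic subline of the LNCaP-derived C4-2 prostate cancer line, passed through castrated nude mice, and it grows without androgen. RNA-Seq covered 3 libraries of parental cells, passaged in vehicle (1% DMSO per the labels), and 3 libraries of enzalutamide resistant cells. The methods in the paper keep the vehicle below this concentration, and the difference was not resolved. The resistant cells were selected in 1 to 20 µM enzalutamide, an antiandrogen, for at least 6 months and then kept in 5 µM. The paper describes the surviving fraction as pooled, so that the resistant group is 1 cell population and its 3 libraries do not stand for separate selections. The extraction protocol gives 10 µM enzalutamide for the cells from which RNA was taken, and its wording does not settle whether the parental cells received it too. The labels do not say that libraries came from separate cultures, so p-values measure the spread between these libraries, which may be technical.

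Neuroendocrine prostate cancer is a form of the disease in which luminal cells lose their androgen response and take on neuronal and endocrine genes. REST is a zinc finger repressor that keeps neuronal genes silent in epithelial cells, by recruiting corepressors to a DNA element called RE1. SRRM4 is a splicing factor, normally found in neurons, that promotes the inclusion of small neural exons. One of these lies in REST itself, and its inclusion yields REST4, a truncated protein with little repressor activity. INSM1 and NEUROD1 are neuroendocrine differentiation factors, POU3F2 (BRN2) and SOX2 are neural progenitor factors, and FOXA2, ONECUT2 and PROX1 are developmental factors of endoderm, liver and neural tissue that have been linked to neuroendocrine prostate tumors.

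The sequences of the regulators with the largest differences, and of the REST exon on which SRRM4 acts, are shown for context. The first is the promoter of SRRM4 (RefSeq, GRCh38.p14, chr12:118981291-118981540, plus strand, 250 bases upstream of the start), with an E-box (CAGATG, positions -155 to -150 from the start) and the reverse strand of a SOX motif (ACAATG, -42 to -37) in capitals. The second is the promoter of POU3F2 (chr6:98834324-98834573, plus strand, 250 bases), with its CCAAT boxes, which start at -135 and -72, in capitals. The third is the neural exon of REST in capitals with 100 upstream and 20 downstream intron bases (GRCh38, GENCODE v44, chr4:56927515-56927684, plus strand).
SRRM4 promoter: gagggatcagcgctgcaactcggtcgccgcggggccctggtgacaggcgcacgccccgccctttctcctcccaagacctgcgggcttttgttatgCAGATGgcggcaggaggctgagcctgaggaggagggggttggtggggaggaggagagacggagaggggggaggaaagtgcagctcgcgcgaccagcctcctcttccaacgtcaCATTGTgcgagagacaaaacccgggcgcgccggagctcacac
POU3F2 promoter: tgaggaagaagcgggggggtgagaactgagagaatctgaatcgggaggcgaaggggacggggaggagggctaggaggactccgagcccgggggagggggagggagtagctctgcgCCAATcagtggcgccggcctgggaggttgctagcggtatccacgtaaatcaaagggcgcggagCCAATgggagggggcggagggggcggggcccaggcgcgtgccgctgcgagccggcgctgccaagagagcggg
REST neural exon: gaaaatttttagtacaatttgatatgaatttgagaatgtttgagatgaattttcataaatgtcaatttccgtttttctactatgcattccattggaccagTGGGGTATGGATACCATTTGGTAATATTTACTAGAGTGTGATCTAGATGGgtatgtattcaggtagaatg
The exon (chr4:56927615-56927664) spans 50 bases, of which 38 are annotated as coding and the last 12, which begin with the stop codon TGA, are not, and it is in 3 of 12 annotated REST transcripts. It lies between an exon that ends at position 56919870 and one that starts at 56929841. SRRM4 is known to bind UGC-containing elements just upstream of its exons, and the 100 bases before this exon hold 1 TGC, 18 bases from it. A gene-level FPKM adds all transcripts of a gene, so the table cannot show whether this exon was included. The motif letters were searched on both strands in the 250 upstream bases of 35093 RefSeq promoters, of which 12.2% held CAGATG, 9.29% held ACAATG and 32% held CCAAT. Of the 9 regulators, 6 were in the promoter table, and INSM1, FOXA2 and PROX1 were not.

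Values are FPKM as made by the authors, that is, the number of sequenced fragments corrected for transcript length and for the size of the library. Per library, the values summed to 792975 to 870110 FPKM. The table holds no read counts. From the smallest values of single-transcript genes, the depth was estimated as 14200000 to 20700000 reads per library, at which 1 read on a transcript of 2000 bases is worth 0.0268 to 0.0392 FPKM. Of the prostate luminal markers, all 7 were above 0 in every library, with a summed level of 3474 to 4148 FPKM in parental and 1025 to 1098 FPKM in resistant libraries. Among them KLK3 (PSA) fell from 2556 to 44 FPKM (adjusted p = 1.1e-06, limma). The 11 markers of immune, fibroblast and vessel cells summed to 9.75 to 12.5 FPKM in parental and 4.45 to 10.2 FPKM in resistant libraries, with CD3E listed at 0 in every library and PTPRC in 5 of 6. Of these 11, 7 were tested, 1 was higher and 2 were lower (PDGFRB and VWF), and their part in the results was not tested. The call of VWF was kept in only 5 of the 14 alternative settings that tested it. Among the losses were those without any 1 of the parental libraries and without resistant library 0 or 2 (adjusted p = 0.0633 to 0.143, limma). The short RNA gene RMRP took 18.4 to 21.5% of the summed FPKM in parental and 11.4 to 12.6% in resistant libraries, and RPPH1 took 0% and 10.7 to 11.6%. FPKM corrects for length, so for short RNAs a share of the summed FPKM overstates the share of reads. How far these RNAs weigh on the values of other genes was not tested. Other scalings were run.

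Resistant cells were compared with parental cells with limma on log2(FPKM + 0.1), for the 24468 genes whose mean reached 0.1 FPKM. Genes with a Benjamini-Hochberg adjusted p below 0.05 were called. Over all genes tested, 22.1% were called higher and 22.3% lower in resistant cells, and 54.8% had no overlap between the groups in either direction. All 9 regulators were above 0 in at least 1 library, and 4 of them passed the filter on low values. SRRM4 and POU3F2 were called higher, no regulator was called lower, and REST and ONECUT2 did not pass the threshold. Without overlap between the groups were 3 regulators, SRRM4, POU3F2 and REST. Counts over so few genes, filtered on their level, are a description. The plot of the 9 regulators by library shows how far SRRM4 stood apart from the rest.

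**Figure D1:**
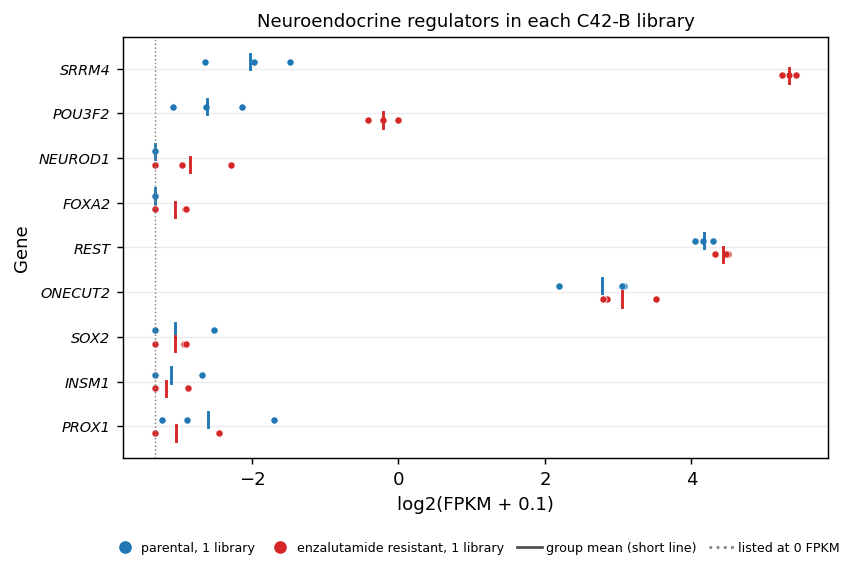
FPKM of the 9 neuroendocrine regulators on a log2(FPKM + 0.1) scale (x axis), with 1 point per library and a short line for the group mean, genes ordered by the difference of the group means. SRRM4 moved from at most 0.258 FPKM in parental to at least 37.8 FPKM in resistant libraries, POU3F2 from at most 0.127 to at least 0.647 FPKM, while REST and ONECUT2 stayed between 4.47 and 22.5 FPKM in all 6 libraries and the other 5 genes stayed at or below 0.208 FPKM.

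SRRM4 (ENSG00000139767.8, chr12:118981541-119163051, plus strand) was the regulator with the largest difference. Its FPKM was 0.061, 0.155 and 0.258 in parental libraries and 40.2, 37.8 and 43.1 in resistant libraries. Every resistant library was far above every parental one. Mean expression was 0.158 ± 0.0983 FPKM in parental and 40.4 ± 2.64 FPKM in resistant cells (SD, n = 3 each), a 256-fold ratio of the means. On the log2(FPKM + 0.1) scale, which understates the change of low genes, the difference was 7.37 (SE 0.31, 95% confidence interval 6.62 to 8.12, adjusted p = 2.01e-05, limma). An exact two-sided permutation test of SRRM4 alone gave p = 0.1, the smallest that 3 libraries against 3 allow. At the estimated depth 1 read on SRRM4 is worth 0.004 to 0.0059 FPKM, so that the parental values stand on few reads and the ratio is imprecise. RN7SL508P, an RN7SL pseudogene inside SRRM4 on the same strand, was at 4.87, 6.8 and 2.85 FPKM in parental and 77.1, 50.3 and 67.5 FPKM in resistant libraries (log2 difference 3.78, adjusted p = 0.000248, limma). Its reads and those of the SRRM4 locus around it overlap, and RN7SL copies are nearly identical, so its level is uncertain. RP11-364C11.2, an antisense gene within SRRM4, was listed at 0 in every library.

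SRRM3, the paralog of SRRM4 that acts on many of the same small exons, rose as well. Its FPKM was 2.69, 3.82 and 2.6 in parental and 17.7, 16.9 and 18 in resistant libraries. The groups did not overlap, with means of 3.04 ± 0.677 and 17.5 ± 0.582 FPKM (SD, n = 3 each). The log2 difference was 2.51 (SE 0.18, adjusted p = 0.000106, limma). In parental cells SRRM3 was the more abundant of the pair per length, and in resistant cells SRRM4 was.

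REST (ENSG00000084093.15, chr4:56907876-56966808, plus strand), the repressor itself, was not lower in resistant cells. It was at 17.7, 19.5 and 16.5 FPKM in parental and at 19.9, 22.5 and 22.2 FPKM in resistant libraries. The lowest resistant library was just above the highest parental library. The means were 17.9 ± 1.52 and 21.5 ± 1.41 FPKM (SD, n = 3 each), a ratio of 1.2. The log2 difference of 0.27 (SE 0.10, 95% confidence interval 0.01 to 0.52) did not pass the threshold (adjusted p = 0.0833, limma), and the exact permutation p was 0.1. Scaling each library by its median ratio over genes above 1 FPKM, which moved the median of all genes by 0.09, gave 0.36 and brought REST past the threshold (adjusted p = 0.0344, limma). NOA1, a gene that overlaps the end of REST on the opposite strand, was at 17.2, 17 and 15.7 FPKM in parental and 12.8, 14.7 and 13.4 FPKM in resistant libraries (log2 difference -0.28, adjusted p = 0.0614, limma). A short antisense gene within REST (ENSG00000269949.1) differed by -1.04 (adjusted p = 0.269, limma). Whether the counting used strand is not stated in the sources used here, and reads of such overlaps may have been split.

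Genes for corepressors of REST and for enzymes that modify or degrade it were expressed in these cells. All 21 of these listed cofactors were tested, 7 were higher and 4 were lower (33.3% and 19.0%, against 22.1% and 22.3% of all genes). Their median log2 difference was 0.10, against -0.05 over all genes. RCOR2, a CoREST subunit of stem and neural cells, rose from 0.282, 0.429 and 0.185 FPKM to 8.57, 4.74 and 5.01 FPKM (log2 difference 3.95, SE 0.37, adjusted p = 0.000321, limma). All resistant libraries were above all parental libraries for RCOR2, and resistant library 0 was the highest. HDAC2, a histone deacetylase of several corepressor complexes, rose from 60.0 to 112 FPKM (log2 difference 0.90, adjusted p = 9.44e-05, limma). CTDSP1, a small phosphatase that acts on REST and RNA polymerase II, rose from 37.6 to 72.2 FPKM (0.94, adjusted p = 0.000239, limma). Scaffold proteins of the SIN3 complex went the other way. SIN3B fell from 31.6 to 17 FPKM (-0.89, adjusted p = 0.00282, limma) and SIN3A from 33.9 to 23.6 FPKM (-0.52, adjusted p = 0.00535, limma). RCOR1 and KDM1A, partners in the CoREST complex that were chosen after their values were seen, did not pass: RCOR1 was at 21.9 and 16.5 FPKM (adjusted p = 0.163) and the demethylase at 47.9 and 52.8 FPKM (adjusted p = 0.135, limma). Under median scaling and quantile normalization KDM1A passed (log2 difference 0.24 and 0.25).

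**Figure D2:**
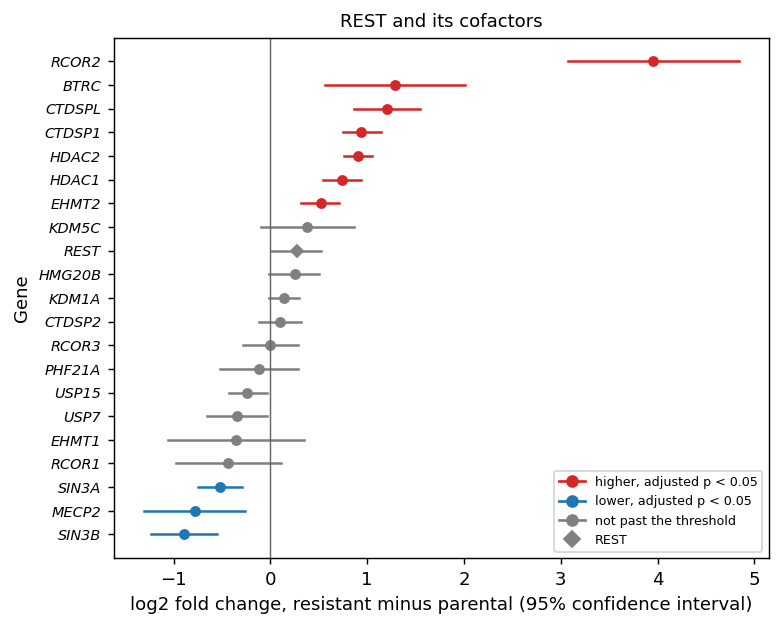
Log2 fold change, resistant minus parental, with its 95% confidence interval for REST (diamond) and 20 cofactors, colored by whether the adjusted p was below 0.05. REST lay at 0.27 with an interval from 0.01 to 0.52, RCOR2 stood apart at 3.95, and SIN3B was the lowest of those drawn at -0.89.

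Neuronal genes with described REST sites were mostly higher in resistant cells. Of 32 such genes, 29 were tested, 26 were called higher and 0 lower (0 also with each of the 15 alternatives run), against 22.1% called higher over all genes. The 26 had no overlap between the groups, which adds little to their calls. Over all genes tested, 54.8% had no overlap in either direction. Over the 29 tested genes the median log2 difference was 3.64, or 3.83 without those at 0 throughout a group, and the summed level of all 32 was 127 to 133 FPKM in parental and 1288 to 1411 FPKM in resistant libraries. Many of these genes are general neuroendocrine markers known to rise in these libraries, so that the list is not an independent measure of REST activity. Some, such as CHGB, SCG3 and GRIA2, passed the filter only through the resistant libraries, so the share called higher is a description. VGF, a secreted neuropeptide precursor, was at 3.27, 2.57 and 4.12 FPKM in parental and 353, 358 and 379 FPKM in resistant libraries (log2 difference 6.76, SE 0.17, adjusted p = 3.76e-06, limma). TUBB3, the neuronal beta tubulin, rose from 17.2, 15.2 and 17.6 FPKM to 143, 150 and 154 FPKM (3.15, adjusted p = 4.6e-06, limma). UNC13A, which primes synaptic vesicles for release, rose from 0.159, 0.241 and 0.207 FPKM to 37.8, 36.5 and 31.5 FPKM (6.87, adjusted p = 4.69e-06, limma). In each of the 3 genes the resistant libraries lay close together and far above the parental ones. Exceptions, named after their values were seen, were STMN2, a growth cone protein (0.119, 0.632 and 0 FPKM in parental libraries, listed at 0 in all resistant libraries, adjusted p = 0.217), CDK5R1, the neuronal activator of CDK5 (6.16 and 7.39 FPKM, adjusted p = 0.347), and CALY, a vesicle protein (0.188 and 0.574 FPKM, adjusted p = 0.139, all limma). SCN3A, SCN3B and ATP2B2 were too low to be tested. In the promoters of 22 of the 32 genes, the letters GGACAGC from the right part of RE1 were found in 5 and CAGCACC from its left part in 5, against 4.76% and 6.16% of all promoters. A gene counted if any of its promoters matched, while the shares are over single promoters, so they are unlike measures. The genes were listed for described REST sites, so a higher share among them is no separate result. Among the 6 regulators with a promoter, GGACAGC was found in that of REST itself (-170 to -164). These are letter matches, not sites, and many known RE1 elements lie outside promoters.

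**Figure D3:**
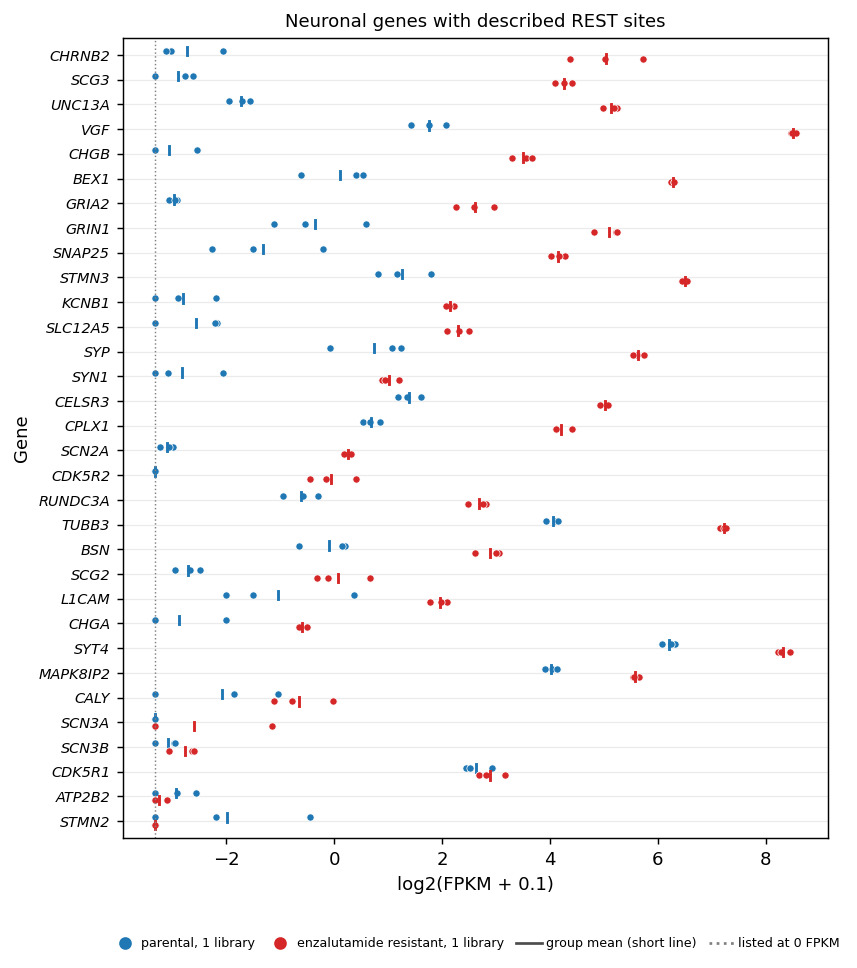
FPKM of 32 neuronal genes with described REST sites on a log2(FPKM + 0.1) scale (x axis), 1 point per library and a short line per group mean, ordered by the difference. The resistant libraries lie above the parental ones without overlap for 26 genes, with VGF and SYT4 at the highest level, and STMN2 is listed at 0 in the resistant libraries. Of all genes tested, 54.8% had no overlap in either direction.

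Among other regulators of neural splicing, changes went in both directions. Of 28 genes other than SRRM3 and SRRM4, 24 were tested, 6 were higher and 5 lower (25% and 20.8%), close to the share over all genes, with a median log2 difference of 0.02. CELF3, a brain-enriched RNA-binding protein, rose from 0.103, 0.163 and 0.116 FPKM to 19.5, 17.5 and 23 FPKM (log2 difference 6.46, adjusted p = 1.05e-05, limma). KHDRBS2 (SLM1), a neuronal splicing factor of the STAR family, was listed at 0 in all parental libraries and was at 9.27, 10.8 and 12.3 FPKM in resistant libraries (adjusted p = 1.57e-05, limma). PTBP3 rose from 31.5 to 64.0 FPKM (1.03, adjusted p = 0.000489, limma). In all 3 genes the groups did not overlap. RBM24, a muscle-enriched splicing factor, changed as widely in the other direction, from 28, 36 and 29.6 FPKM to 0.0734, 0.132 and 0.0939 FPKM (-7.29, SE 0.22, adjusted p = 6.11e-06, limma). ESRP2, an epithelial splicing factor, fell from 53.9 to 37.1 FPKM (-0.55, adjusted p = 0.00724, limma), and RNPS1, which has been described as limiting cryptic splicing, from 90.8 to 69.3 FPKM (-0.39, adjusted p = 0.0114, and 0.0567 without the variance trend, limma). PTBP1, the repressor of neural exons outside the nervous system and an antagonist of SRRM4 on many of them, was named after its values were seen. It was at 374, 502 and 405 FPKM in parental and 270, 294 and 311 FPKM in resistant libraries (-0.54, adjusted p = 0.0121, limma), without overlap, and remained abundant.

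**Figure D4:**
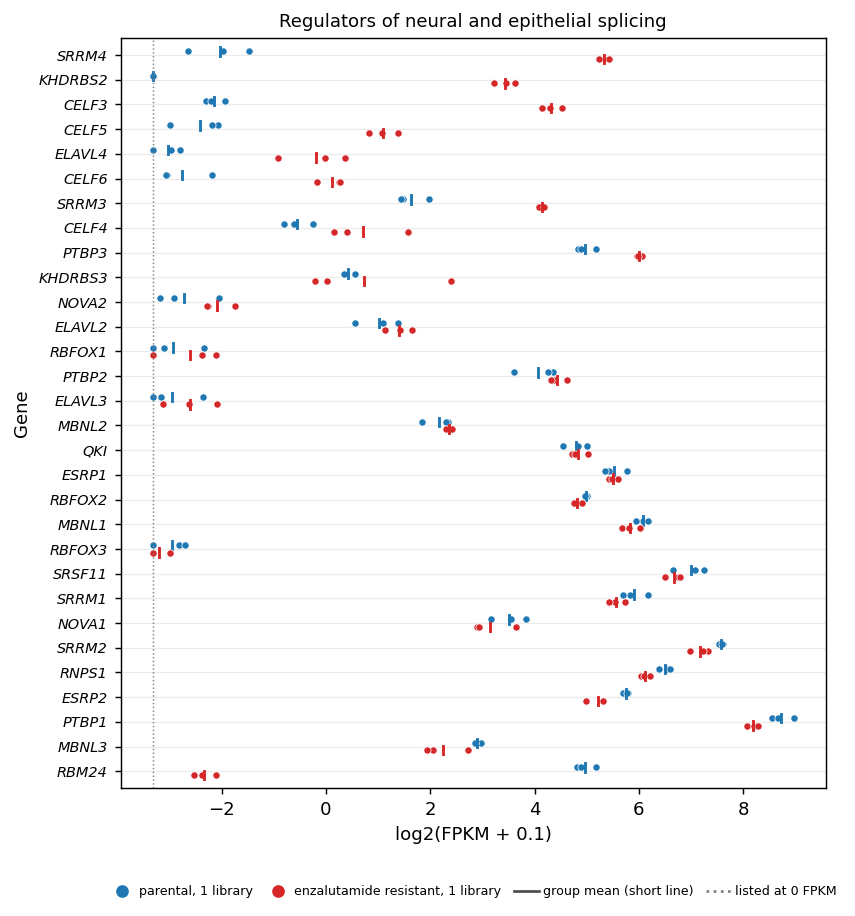
FPKM of 28 regulators of neural and epithelial splicing together with SRRM3 and SRRM4 on a log2(FPKM + 0.1) scale (x axis), 1 point per library and a short line per group mean, ordered by the difference. SRRM4, KHDRBS2 and CELF3 are at the top, at 40.4, 10.8 and 20.0 FPKM in resistant cells, RBM24 is at the bottom at 0.0999 FPKM, and 13 of the 24 tested genes other than SRRM3 and SRRM4 did not pass the threshold.

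POU3F2 (ENSG00000184486.9, chr6:98834574-98839458, plus strand), a POU domain factor of neural progenitors, was the other regulator that was higher. It was at 0.0624, 0.127 and 0.0189 FPKM in parental and 0.647, 0.767 and 0.894 FPKM in resistant libraries. The groups did not overlap, and all resistant values were below 1 FPKM. Mean expression was 0.0693 ± 0.0542 FPKM in parental and 0.769 ± 0.124 FPKM in resistant cells (SD, n = 3 each), a ratio of 11.1, and the log2 difference was 2.40 (SE 0.42, 95% confidence interval 1.39 to 3.41, adjusted p = 0.0044, limma), with an exact permutation p of 0.1. With a pseudocount of 1 FPKM the difference was 0.73 and with 0.01 FPKM it was 3.55, both past the threshold. The highest library held an estimated 60 reads. In bulk RNA, fewer cells that express a gene and less RNA per cell cannot be told apart, so a level this low may be spread over all cells or stem from few of them. Its paralogs were lower still: POU3F3 was listed at 0 in parental and at 0.141, 0.19 and 0.147 FPKM in resistant libraries, POU3F4 was above 0 in 1 library (0.102 FPKM), and POU3F1 was listed at 0 throughout.

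ONECUT2 (ENSG00000119547.5, chr18:57435374-57491298, plus strand), a cut homeodomain factor that can repress the androgen response, was expressed in every library, without a difference beyond the spread between libraries. It was at 8.32, 4.47 and 8.22 FPKM in parental and 7.08, 6.81 and 11.4 FPKM in resistant libraries. The groups overlapped, with parental library 1 the lowest and resistant library 2 the highest. The means were 7.0 ± 2.2 and 8.42 ± 2.56 FPKM (SD, n = 3 each), and the log2 difference of 0.28 (SE 0.32, 95% confidence interval -0.49 to 1.04) did not pass (adjusted p = 0.504, limma, exact permutation p = 0.6). The interval includes a decrease of 0.49 and an increase of 1.04. The difference was -0.01 without parental library 1 and 0.04 without resistant library 2. ONECUT1 was above 0 in 1 parental library (0.114 FPKM) and ONECUT3 in resistant libraries 0 and 2 (0.028 and 0.00956 FPKM).

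The other 5 regulators had means below 0.1 FPKM and were not tested. INSM1 (chr20:20368104-20370949, plus strand) was at 0.0558 FPKM in parental library 0 and 0.0369 FPKM in resistant library 0 and was listed at 0 in the other 4, with at most an estimated 3.1 reads. NEUROD1 (chr2:181668295-181680827, minus strand) had a listed value of 0 in every parental library and was at 0, 0.105 and 0.0294 FPKM in the resistant ones, with at most an estimated 14 reads. CERKL starts beside it on the same strand and overlaps its locus, was also at 0 in parental libraries and at 0.331, 0.18 and 0.115 FPKM in resistant libraries (adjusted p = 0.0374, limma, and 0.0748 to 0.0939 without any 1 parental library), and reads of both genes cannot be told apart where they overlap. FOXA2 (chr20:22580998-22585455, minus strand) was listed at 0 in parental libraries and was at 0.032, 0 and 0.034 FPKM in resistant libraries, an estimated 1.4 reads at most. The means of these 3 genes were below the filter of 0.1 FPKM, and INSM1 and FOXA2 held too few reads to show a difference at this depth.

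SOX2 (chr3:181711925-181714436, plus strand) was at 0, 0.0751 and 0 FPKM in parental and 0, 0.0309 and 0.0343 FPKM in resistant libraries, at most an estimated 3.3 reads. SOX2 lies within an intron of SOX2-OT, a long non-coding RNA gene on the same strand. SOX2-OT was at 0.877, 0.0501 and 0.453 FPKM in parental and 1.37, 1.88 and 2.35 FPKM in resistant libraries, without overlap (log2 difference 2.16, SE 0.71, adjusted p = 0.0479, limma). The call was kept in 7 of 15 alternatives. It was lost without parental library 2 or without any 1 resistant library (adjusted p = 0.0821 to 0.142, limma), and with a pseudocount of 0.01 FPKM, no filter, no variance trend or the replicate block (adjusted p = 0.0676 to 0.078, limma). PROX1 (chr1:213983181-214041510, plus strand), a homeodomain factor of neural, hepatic and lymphatic development, was at 0.0071, 0.0351 and 0.208 FPKM in parental and 0.0823, 0 and 0 FPKM in resistant libraries. The groups overlapped, and parental library 2 was the highest with an estimated 26 reads at most. Exact permutation p was 1 for INSM1 and SOX2, 0.4 for NEUROD1 and FOXA2 and 0.5 for PROX1.

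The close relatives of the regulators were as sparse. Of 15 paralogs, 11 were above 0 in some library, 4 were tested, 3 were higher and 0 lower, against 22.1% and 22.3% of all genes. Besides SRRM3 these were INSM2, listed at 0 in parental and at 0.315, 0.139 and 0.244 FPKM in resistant libraries (adjusted p = 0.0232, limma), and FOXA3, at 0.161, 0 and 0 FPKM and 0.429, 0.46 and 0.438 FPKM (log2 difference 1.98, SE 0.53, adjusted p = 0.0229, limma). INSM2 and FOXA3 passed the filter only through the resistant libraries, so the count of called paralogs is a description. Neither call held with every library left out. Only SRRM3 was called without parental library 1, parental library 2, resistant library 0 or resistant library 2. In turn, 2 paralogs were called without parental library 0 or resistant library 1. INSM2 did not pass without any 1 parental library (adjusted p = 0.05 to 0.0652, limma), though all of these were at 0. The difference of FOXA3 stayed at 1.95 to 1.99 without any 1 resistant library, but did not pass. FOXA1, the pioneer factor of luminal prostate cells, was the abundant FOXA gene at 175 ± 34.7 and 155 ± 13.5 FPKM (SD, n = 3 each), with overlapping groups (log2 difference -0.16, adjusted p = 0.412, limma). NEUROD4 was listed at 0 in parental and at 0.0635, 0.0356 and 0.0201 FPKM in resistant libraries. NEUROD2 was at 0.0271 FPKM or less in parental and 0.0762 FPKM or less in resistant libraries, and SOX1 was above 0 in 1 resistant library (0.0643 FPKM). NEUROD6, SOX3 and PROX2 were listed at 0 in all 6 libraries.

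Beyond the 9 regulators, 33 neural transcription factors were examined, of which 23 were tested, 11 were higher and 8 lower (47.8% and 34.8%, against 22.1% and 22.3% of all genes). The median log2 difference was 1.01, and 0.09 without the 5 genes at 0 throughout a group. Genes such as PAX5, PAX6 and NKX2-1 passed the filter only through the resistant libraries, and SOX11 only through the parental ones. The list was also chosen with earlier results of these data known, so these counts and shares are a description. PAX5, a paired box factor of B cells and the developing midbrain, rose from 0.0116, 0 and 0.017 FPKM to 20.4, 21.6 and 22.4 FPKM (log2 difference 7.62, SE 0.22, adjusted p = 5.84e-06, limma). SOX4, a progenitor factor, rose from 31.0 to 64.8 FPKM (1.06, adjusted p = 0.000136, limma), and PAX6, a master factor of eye and pancreatic islet, from 0.0155 to 2.19 FPKM (4.31, adjusted p = 0.000182, limma). In these 3 genes the groups did not overlap. HES6, a cofactor of proneural programs, fell from 55.8, 67.6 and 44 FPKM to 22.9, 18.4 and 19.5 FPKM (-1.44, SE 0.17, adjusted p = 0.000928, limma). SOX11, a factor of immature neurons, fell from 0.761 to 0.0155 FPKM (-2.90, adjusted p = 0.00123, limma), and ISL2, a motor neuron factor, from 2.71 to 0.696 FPKM (-1.83, adjusted p = 0.00755, limma). NKX2-1, a factor of lung, thyroid and forebrain named after its values were seen, was listed at 0 in parental and at 1.77, 1.32 and 1.53 FPKM in resistant libraries (adjusted p = 0.000264, limma).

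**Figure D5:**
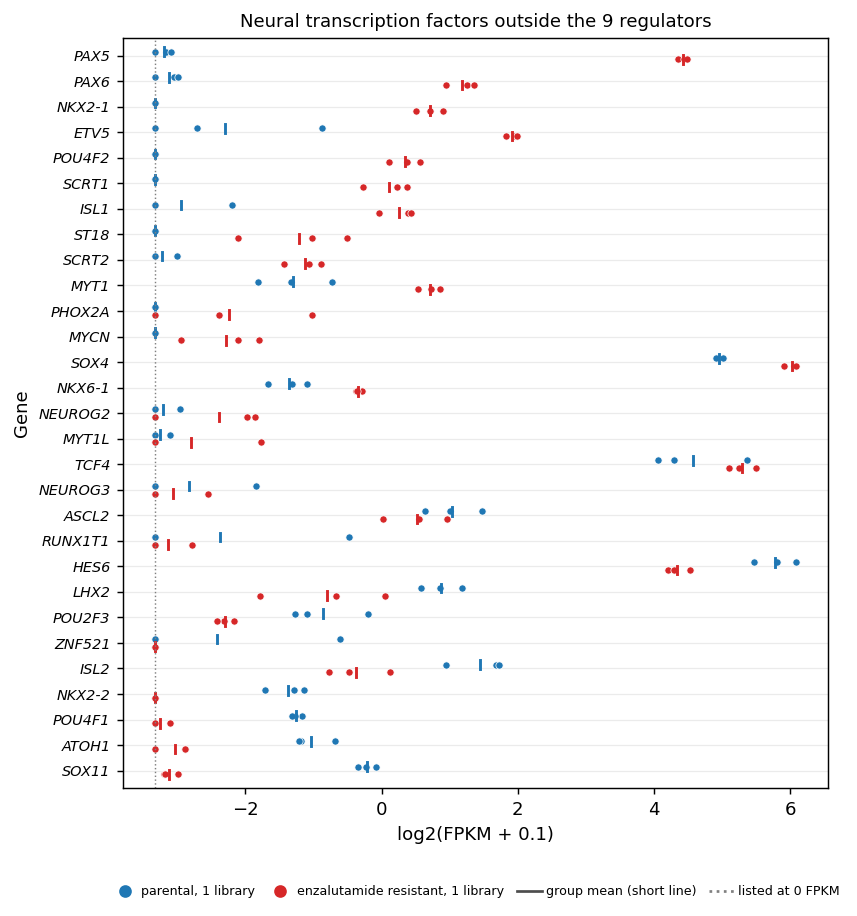
FPKM of 29 neural transcription factors above 0 in at least 1 library on a log2(FPKM + 0.1) scale (x axis), 1 point per library and a short line per group mean, ordered by the difference. PAX5 reaches 20.4 to 22.4 FPKM in resistant libraries, while SOX11 at the bottom falls from 0.761 to 0.0155 FPKM.

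The genes whose log2(FPKM + 0.1) followed each expressed regulator most closely over the 6 libraries were sought among the 16382 genes whose mean reached 1 FPKM. For SRRM4 these were DPYSL5 (Pearson r = 0.9999) and SLC44A5 (r = 0.9998), and 2326 genes had an r above 0.95, since any gene with a wide gap between the groups follows it. For REST they were RMND5A (r = 0.9934) and FAM98C (r = 0.9913), with 102 genes above 0.95. For ONECUT2 they were PACRGL (r = 0.99) and MTUS1 (r = 0.9854), with 14 above 0.95. PACRGL and MTUS1 were, like ONECUT2, lowest in parental library 1 (12.5 and 14.2 FPKM) and highest in resistant library 2 (27.2 and 25.9 FPKM). These values describe 6 libraries that share 2 groups and carry no test.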

How the data were processed

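RNA-Seq libraries of C42-B parental and enzalutamide resistant cells (3 each) were analyzed. Per the paper, the authors used TrimGalore 0.4.3 on single-end 50 bp reads, STAR 2.5.3 with the GRCh38 genome, and Cufflinks 2.2.1 with GENCODE v25 to estimate expression, and they deposited 1 table with a value per gene and library. The table names no unit, and its values were taken as FPKM made by the authors from the methods and the form of the values. The submitters' processing notes instead name Trimmomatic 0.27, FastQC 0.10.1 and the mouse build mm10, while the table holds human genes whose positions match GRCh38. No read counts were used here, so no count test was possible, depth is an estimate (genes with 1 transcript of 600 to 8000 bases, fragments of 200 bases), and an exact 0 was read as listed at 0, since it can be a failed estimate.

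Groups were taken from the labels and compared with limma 3.58.1 (R 4.3.3) with a mean-variance trend on log2(FPKM + 0.1), for the 24468 genes whose mean reached 0.1 FPKM, with two-sided p-values adjusted over all of them by the Benjamini-Hochberg method at 0.05. No fold is given for a gene at 0 throughout a group. Single genes were also tested by exact permutation with scipy 1.17.1 (smallest p 0.1). On simulated data, the fit called 71 of 200 planted changes, all with the right sign, and made 1 false call. Of the 87 changes of the larger planted size, 48 were called. A gene that did not pass may therefore still differ. The planted changes were a far smaller share of the 24468 genes than the share called in these data. Benjamini-Hochberg adjustment is stricter in that case, so the simulated recovery is not an estimate for these data. Positions came from GENCODE v44 and promoters from RefSeq. All tables were handled with Python 3.11.15 and pandas 2.3.3, and figures were drawn with matplotlib 3.10.9.

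Members and lists were chosen with earlier results of these data known. Named were the 9 regulators, their paralogs above 0, up to 3 called genes without overlap per list and direction by adjusted p, the 2 genes most like each regulator with a group mean of at least 1 FPKM, and genes overlapping a regulator or within 50 kb where they bore on its value. Some genes covered by these rules are not reported here. The 15 alternatives covered the pseudocount, the filter, the scaling, the trend, a replicate block and each library left out. Scaling to the protein-coding total was added after seeing the data.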

Additional observations from a re-analysis of the deposited data

How the results depend on the processing

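With a minimum mean of 1 FPKM in place of 0.1, 1 regulator was called higher in place of 2 (POU3F2 was not tested), 1 paralog in place of 3, and 4 neural transcription factors were higher and 3 lower in place of 11 and 8. Without the variance trend 3 neural splicing regulators were lower in place of 5. The numbers of the libraries did not pair them (correlations of the deviations of same-numbered libraries 0.00802, 0.0165 and -0.00301), and with the replicate block 1 paralog was higher, 4670 genes were higher and 4793 lower over all genes. With each library left out, the paralogs called higher ranged from 1 to 2. ONECUT2 reversed to -0.01 without parental replicate 1 (adjusted p = 0.97, limma). SRRM4 kept its call in all 15 alternatives (5.16 to 8.11) and POU3F2 in the 14 that tested it (0.73 to 3.55). REST passed in 1, median scaling, and ranged from 0.21 to 0.36 (adjusted p = 0.0344 to 0.201, limma). REST targets called higher ranged from 21 to 26, REST cofactors from 6 to 9 higher and 3 to 5 lower. ONECUT2 otherwise ranged up to 0.43. Of 43 tested genes recomputed one by one, 34 kept direction and side of the threshold in every alternative that tested them. The cause of these shifts was not tested, beyond the genes the stricter filter removes. Dropping the filter moved the median of all genes by 0.11. INSM1, NEUROD1, FOXA2, SOX2 and PROX1 were below the filter, and depth limits INSM1, FOXA2 and SOX2, with at most 3.1, 1.4 and 3.3 estimated reads.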
